A study of Mus musculus with 2 samples.

Results

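A group of 10 genes that work in protein synthesis and ribosome biogenesis were examined in the mouse prostate. It holds the ribosomal protein genes RPL22, RPL37, RPL39 and RPL10A, the nascent chain factor NACA, the translation factor EIF4A1, the rRNA methyltransferase DIMT1 and the U3 small nucleolar RNA genes RNU3B1, RNU3B3 and RNU3B4. The genes were selected on measured values, namely on their place in the study's printed list of genes that changed at least 1.5-fold, so their differences below are a description and not evidence of a change in the pathway. Each gene was located by its pair of log2 signals, as 1 row or as the mean of 2 or 3 rows equal to that pair at 6 decimals in both samples, without use of the gene names in the deposited table. The sets of 3 rows, those of RPL10A and EIF4A1, are the least certain, since unrelated sets of 3 rows can share a mean at this precision. The 10 genes gave 8 pairs of values on 18 of 35557 rows, because the RNU3B genes share 1 pair. Each row is an Affymetrix transcript cluster, the group of probes that reads 1 transcript.

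The samples were dorsolateral prostates of vehicle-treated mice aged 20 weeks, labelled as C57BL/6 in both groups, with 1 deposited sample per group. Per the methods, the TRAMP males were F1 or F2 offspring of heterozygous TRAMP and C57BL/6 mice. The TRAMP sample came from mice that carry the SV40 large T oncogene under a rat probasin promoter, which is active in prostate epithelium, so that the oncogene is driven in that cell type, and the other sample came from non-transgenic littermates. In the methods, 3 non-transgenic and 4 TRAMP mice served as replicates, whereas the labels describe pooled RNA, so the spread between mice is unknown. With 1 sample per group no value here has an error or a test, and the number of arrays limits the precision. In bulk tissue, fewer cells of a type and less RNA per cell cannot be told apart.

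Ribosomes are assembled in the nucleolus, where ribosomal RNA is transcribed, cut and modified with the help of small nucleolar RNAs and enzymes, and is joined by the ribosomal proteins. In the cytoplasm, initiation factors load the finished subunits on mRNA and the growing chain is met at the ribosome exit by nascent chain factors. Growing cells use much of their energy on this machinery, and messages of many ribosomal proteins start with a run of pyrimidines through which their translation is controlled.

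Of the 8 pairs of values, 7 were higher in the TRAMP sample by 1.53 to 2.18-fold, namely those of RPL22, RPL37, RPL39, RPL10A, NACA, EIF4A1 and DIMT1. The pair of RNU3B1, RNU3B3 and RNU3B4 was the exception, at 1.73-fold lower. By single rows, 12 of the 14 rows of the higher members passed 1.5-fold upward. The 4 rows of the RNU3B genes, which hold the same pair of values, passed it downward. Over all 35557 rows, 6.4% passed 1.5-fold upward and 2.44% downward. These shares stand beside the member counts for scale alone, since the members were chosen from that contrast. The 14 rows ranged from 0.49 to 1.12 on the log2 scale with a median of 0.70, whereas all rows had a median difference of 0.03 with quartiles of -0.13 and 0.22.

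**Figure D1:**
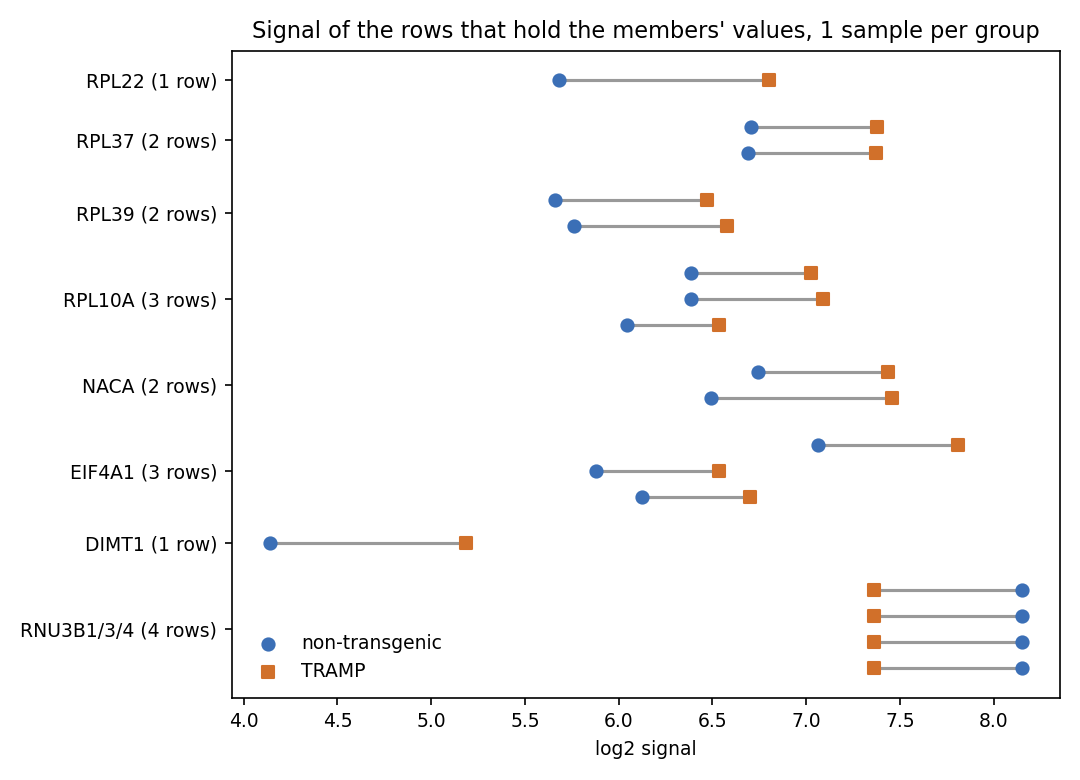
Log2 signal of the non-transgenic sample (circles) and the TRAMP sample (squares) for each of the 18 rows that hold a member's values, with 1 sample per group and so no error bars. The TRAMP square lies to the right in the 14 rows of RPL22, RPL37, RPL39, RPL10A, NACA, EIF4A1 and DIMT1 and to the left in the 4 rows of the RNU3B genes, which coincide at 8.15 and 7.36.

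RPL22, a large subunit protein that binds RNA and has roles outside the ribosome, was the member with the greatest increase. Its pair lay on transcript cluster 10606184, which has no gene name in the table. Its log2 signal went from 5.68 in non-transgenic to 6.80 in TRAMP prostate, which is a difference of 1.12 or 2.18-fold. A greater increase was found in 241 rows. Among the 5894 rows whose mean log2 signal lay within 0.25 of that of this row, 3.12% were at least 1.5-fold higher in the TRAMP sample.

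RPL37, a small basic protein of the large subunit, had its values on a pair of rows with nearly the same levels. Transcript cluster 10347921 went from a log2 signal of 6.70 in non-transgenic to 7.38 in TRAMP prostate, a difference of 0.68. Transcript cluster 10485681 had 6.69 and 7.38, a difference of 0.68. Their differences were only 0.0081 apart, and the mean corresponds to 1.60-fold.

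RPL39, one of the shortest proteins of the ribosome and a part of the wall of the peptide exit tunnel, was also held by 2 rows that moved together. Transcript cluster 10381939 went from a log2 signal of 5.66 to 6.47 and cluster 10540269 from 5.76 to 6.58, and both differed by 0.81. The differences were 0.0047 apart on the log2 scale. On average RPL39 was 1.76-fold higher in the TRAMP sample.

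RPL10A, a protein of the large subunit's mobile L1 stalk, was the higher member nearest to the 1.5-fold limit, and its 3 rows were less alike. Cluster 10350823 went from a log2 signal of 6.39 to 7.03, a difference of 0.64. Cluster 10448192 went from 6.38 to 7.09, a difference of 0.71. Cluster 10476814 went from 6.04 to 6.54, a difference of 0.49 or 1.41-fold, which is below the limit. The mean over the rows was 0.61 or 1.53-fold, so RPL10A passed the limit by its mean and by 2 of its 3 rows. With the median difference of all rows subtracted (median centring), its mean was 0.58 and no longer passed.

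Because pyrimidine runs at the start mark many ribosomal protein messages, windows of 50 bases before and 50 after the RefSeq transcription start (GRCm38.p6) are printed for these genes, with the longest run of C and T in capitals and every letter 5′ to 3′ on the gene's strand. Rpl22 and Rpl10a have 2 starts each in RefSeq, and for both the start with the longer run was picked for printing, so its run length is no support for a shared feature. Rpl22 lies at chr4:152325676-152325775 (+), Rpl37 at chr15:5116563-5116662 (+), Rpl39 at chrX:37085173-37085272 (-) and Rpl10a at chr17:28328515-28328614 (+).
Rpl22: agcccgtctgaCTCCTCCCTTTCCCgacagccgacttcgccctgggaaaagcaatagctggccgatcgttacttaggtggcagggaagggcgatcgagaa
Rpl37: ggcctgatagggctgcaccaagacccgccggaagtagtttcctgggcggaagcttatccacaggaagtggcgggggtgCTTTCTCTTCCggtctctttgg
Rpl39: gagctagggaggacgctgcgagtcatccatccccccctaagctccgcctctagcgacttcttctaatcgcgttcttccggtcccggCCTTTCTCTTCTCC
Rpl10a: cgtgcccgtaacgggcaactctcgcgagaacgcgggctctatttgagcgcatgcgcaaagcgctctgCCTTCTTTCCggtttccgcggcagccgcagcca

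The longest pyrimidine runs of these windows were 14 bases in Rpl22, 11 in Rpl37, 14 in Rpl39 and 10 in Rpl10a. Of all 32851 promoter windows of the RefSeq table, 4.99% hold a run of at least 14 bases, 12.9% at least 11 and 18.1% at least 10. The run of Rpl22 starts at base -39, before the annotated start, whereas those of Rpl37, Rpl39 and Rpl10a start at base 29, 37 and 18 after it, and that of Rpl39 ends with the window. The other starts of Rpl22 and Rpl10a had runs of 5 and 7 bases, which 86.5% and 50.3% of all windows reach. In the full 300 bases on both strands, the letters CCGGAA, the core recognized by ETS factors, were found in the windows of Rpl37, Rpl39 and Rpl10a, 3 of the 9 member windows, and in 14.9% of all windows. A match of letters is a description of the window and not a bound site.

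NACA, the alpha subunit of the nascent polypeptide-associated complex that shields new chains at the ribosome exit, was higher in the TRAMP sample on both of its rows. Transcript cluster 10455588 had log2 signals of 6.74 (non-transgenic) and 7.44 (TRAMP), a difference of 0.70. Cluster 10562927 had 6.49 and 7.46, a difference of 0.96. The rows were 0.27 apart, and their mean of 0.83 corresponds to 1.78-fold.

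EIF4A1 is the RNA helicase that unwinds the leader of mRNAs for the ribosome, and its mean over 3 rows was 1.58-fold higher in the TRAMP sample. Cluster 10463645 went from a log2 signal of 7.07 to 7.81, a difference of 0.74. Cluster 10571907 went from 5.88 to 6.53, a difference of 0.65. Cluster 10608673, which is named unknown in the table, went from 6.13 to 6.70 and was 1.49-fold higher, just outside the limit. The mean difference was 0.66. With an offset of 16 added on the linear scale, the mean was 0.57 and below the limit.

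The window of Eif4a1 at chr11:69672374-69672473 (-) is printed with its longest pyrimidine run, of 3 bases, in capitals. It was picked for this run, the shortest among the member windows, so it shows no contrast between groups of genes.
Eif4a1: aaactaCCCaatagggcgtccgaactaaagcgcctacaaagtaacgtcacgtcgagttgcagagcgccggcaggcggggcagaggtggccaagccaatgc

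Runs of at least 3 bases are in 99.6% of all windows. The windows of Naca and Dimt1 had runs of 7 and 6 bases, so 6 of the 9 member windows held a run of 7 or more, beside 50.32% of all windows. The letters CACGTG, an E-box that MYC and related factors can bind, were found in the 300 bases of Eif4a1 alone among the members and in 7.15% of all windows. The letters GGGCGG, known as a GC box, were found in 4 of the 9 member windows, those of Rpl37, Eif4a1, Dimt1 and the start of Rpl10a that is not printed above, and in 35.7% of all windows.

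DIMT1, which methylates adjacent adenosines of the small subunit's rRNA, was the second strongest increase and the dimmest member. On transcript cluster 10572253 non-transgenic prostate had a log2 signal of 4.14 and TRAMP prostate one of 5.18, a difference of 1.05 or 2.06-fold. It was the one member row below the median signal of the table, which was 5.74, and the other 17 lay above it. When an offset of 16 was added on the linear scale, its difference fell to 0.64 and still passed 1.5-fold. A greater increase was found in 311 rows.

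RNU3B1, RNU3B3 and RNU3B4 encode copies of the U3 small nucleolar RNA, which guides early cuts of the rRNA precursor. They are near-identical copies, and each row named for them carries all of their names. The pair of log2 signals that these genes share was 8.15 without and 7.36 with the transgene, a fall of 0.79. Exactly this pair stood on 4 rows, transcript clusters 10449893, 10464471, 10564061 and 10599917. The 4 rows are thus 1 measurement in these data and were counted as 1 among the pairs of values, though as 4 where single rows were counted. Of the 35078 distinct pairs in the table, 34850 stood on 1 row and 15 on exactly 4 rows.

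The decrease of the RNU3B pair went against the other members and against the rows of like signal. Among the 1019 rows whose mean log2 signal lay within 0.25 of it, 21.2% were at least 1.5-fold higher in the TRAMP sample and 2.94% at least 1.5-fold lower. For the rows of the higher members, the share of rows of like signal at least 1.5-fold higher ran from 3.12% for RPL22 to 14.5% for cluster 10463645 of EIF4A1. A greater decrease than that of the RNU3B pair was found in 370 rows. After loess centring, the RNU3B difference was -0.99.

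**Figure D2:**
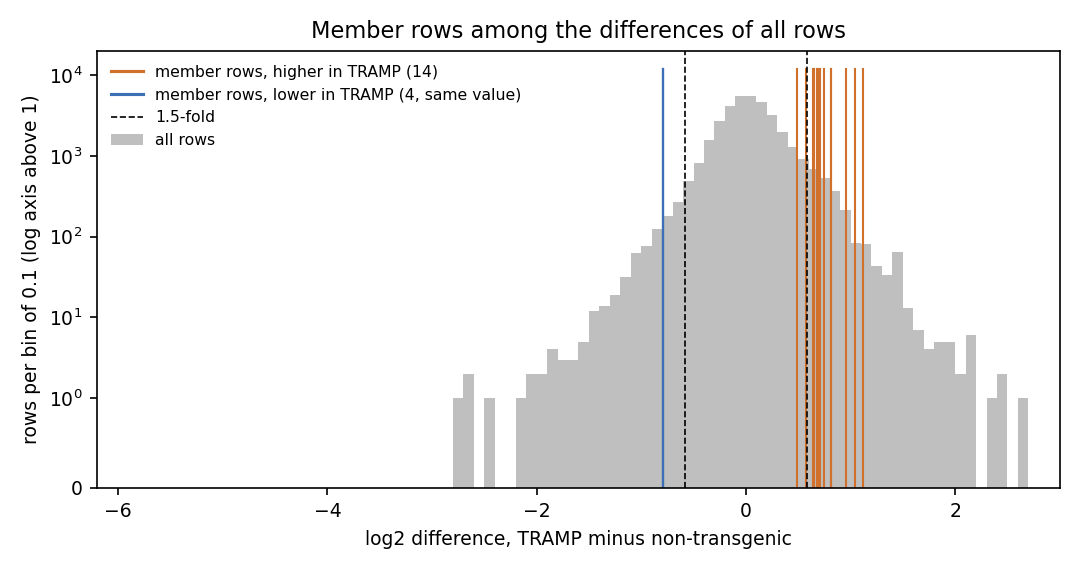
Number of rows per bin of 0.1 of the log2 difference, TRAMP minus non-transgenic, over all 35557 rows, on a vertical axis that is logarithmic above 1. Vertical lines mark the 14 rows of the higher members, from 0.49 to 1.12, and the shared value of the 4 RNU3B rows at -0.79, and dashed lines mark 1.5-fold, which 2 of the 14 rows do not reach.

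The rows of a member agreed to different degrees. Over the 1481 names that stand on 2 rows of the table, the differences of both rows were a median of 0.25 apart, with quartiles of 0.12 and 0.44, and 21.4% were less than 0.1 apart. RPL37 and RPL39 were closer than the lower quartile, and NACA, at 0.27, lay near the median. Over the 463 names on 3 rows the median range was 0.43 with quartiles of 0.29 and 0.64. RPL10A, at 0.21, and EIF4A1, at 0.17, were both below that lower quartile. The ranges of the members come from rows chosen by their values. The other ranges come from rows grouped by the table's names, which are out of step with the values of the members, so they may not be spreads between rows of 1 gene.

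**Figure D3:**
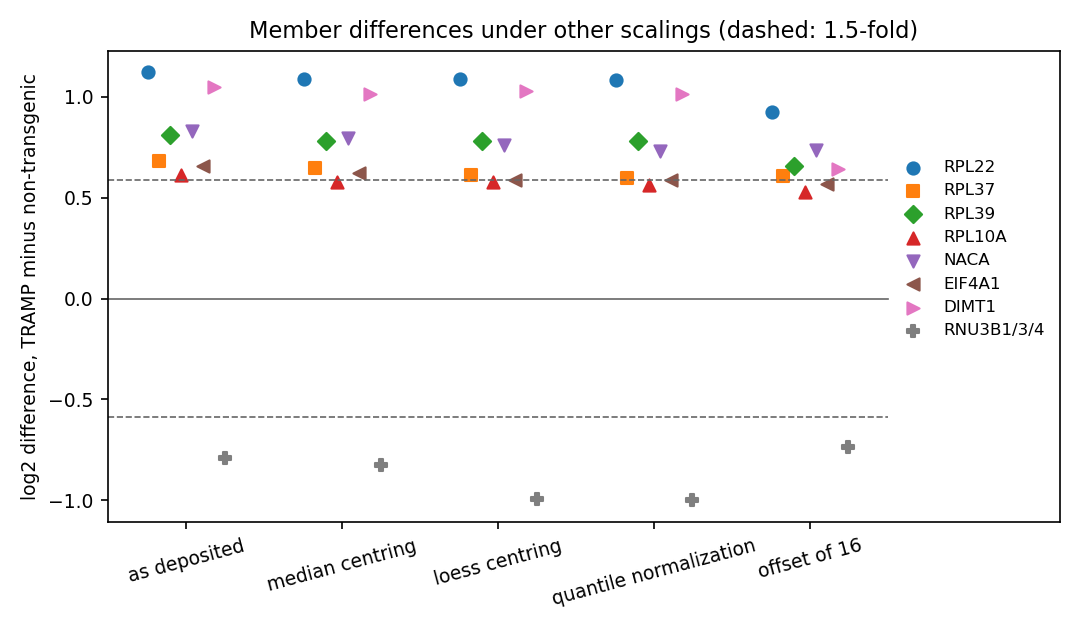
Log2 difference of the 8 pairs of values, TRAMP minus non-transgenic, as deposited and after median centring, loess centring, quantile normalization and an offset of 16, with dashed lines at 1.5-fold. RPL22 stays uppermost and the RNU3B genes stay below the lower line, while RPL10A lies under the upper line in every setting but the deposited one and EIF4A1 does so with the offset.

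The names in the deposited table did not lead to these rows. None of the 18 rows that hold a member's values carried the name of that member. The rows of RPL22 and of RNU3B include rows without a name, the rows of RPL37 were named A530040E14Rik and Fshb, those of RPL39 Tanc2 and Gpr27, and that of DIMT1 was named Sf4. The rows of RPL10A were named Abl2, EG624960 and Insm1, and the rows of NACA and EIF4A1 carried Hspe1, Ptov1, Sufu and Mfap3l among others. For each of the 8 pairs, the number of rows that hold the values equalled the number of rows named for the member, which was 1 for RPL22 and DIMT1, 2 for RPL37, RPL39 and NACA, 3 for RPL10A and EIF4A1 and 4 for the RNU3B genes. The closest row named for a member stood 283 to 18153 rows away in the table. A second deposited table holds the values of all 14 rows of the higher members, in each case against an identifier other than that of the full table. The values of the RNU3B rows are absent from it. The qRT-PCR of the study was not analysed here. The identifiers of the second table were not compared with those of the rows named for the members. Which of the rows was measured with a member's probes was therefore not settled here.

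The rows named for the members gave other values. The log2 signal of the row named Rpl22 was 4.16 in non-transgenic and 4.25 in TRAMP prostate, 0.10 apart. The rows named Rpl37 differed by -0.06 and -0.14, and those named Rpl39 by 0.0026 and 0.07. None of these ribosomal protein rows passed 1.5-fold, and neither did the 3 rows named Rpl10a, at 0.36, 0.12 and -0.18.

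The rows named Naca went in opposite directions, from a log2 signal of 5.55 to 6.06 on one, a difference of 0.51, and from 5.40 to 5.07 on the other, a difference of -0.33. The row named Dimt1 went from 6.44 to 6.13, a difference of -0.31. The rows named for Rnu3b1, Rnu3b3 and Rnu3b4 held 4 distinct pairs, with differences of -0.08, 0.06, 0.08 and -0.06. The 3 rows named Eif4a1 differed by 0.21, 0.07 and 0.70, and the last of these, cluster 10466402 with log2 signals of 6.20 and 6.90, was the single row of the 18 past 1.5-fold. In all, 11 of the 18 rows were above 0 and 7 below, with a median of 0.06. For scale, 5.35% of all 25128 named rows passed 1.5-fold upward. By the mean over rows, 56.8% of all 23888 names were above 0. The 18 rows are too few to be set apart from these shares. By the mean over named rows, 5 of the 8 pairs kept their sign, 3 did not (RPL37, DIMT1 and RNU3B) and 0 passed 1.5-fold. The 5 that kept it were all higher members. Since most names were above 0, the kept signs are no evidence of agreement.

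**Figure D4:**
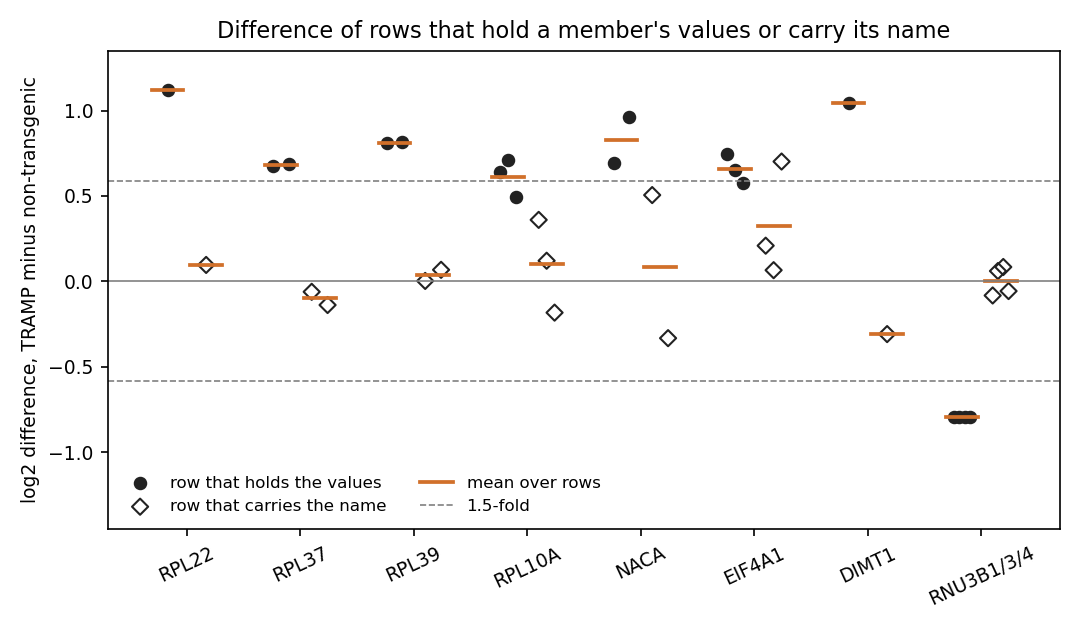
Log2 difference, TRAMP minus non-transgenic, of each row that holds a member's values (filled circles) and of each row that carries its name (open diamonds), with the mean over rows as a short bar and 1.5-fold as dashed lines. All 14 circles of the higher members lie between 0.49 and 1.12, whereas the 18 diamonds lie between -0.33 and 0.70 around a median of 0.06.

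The other genes of the pathway can be described by name alone and with the same limit, that a name may not belong to its row. Over all 23888 names, with the mean over rows of a name, 4.72% were at least 1.5-fold higher and 0.825% at least 1.5-fold lower in the TRAMP sample, and the median difference was 0.04. Of 48 names of large subunit proteins, 0 passed in either direction and the median was 0.04. Above 0 were 31 (64.6%), beside 56.8% of all names. The extremes were Rpl6 at 0.58 and Rplp1 at 0.42, against Rpl36a and Rpl36al, which share their rows, at -0.20. Of 33 names of small subunit proteins, 1 passed upward, which was Fau at 0.66, the median was 0.09 and 23 (69.7%) were above 0. Fau encodes a ubiquitin-like protein fused to a small subunit protein, and its rows differed by -0.10 and 1.42. Rps23 had 0.52, Rps3 -0.19 and Rps25 -0.16.

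Among 51 names of initiation and elongation factors, the group of EIF4A1, 2 passed upward and 1 downward, with a median of 0.03. In this list 28 (54.9%) were above 0, beside 56.8% of all names. Eif4g2, a relative of the scaffold that EIF4A1 binds, had a difference of 0.73, and Eif3e, a subunit of the initiation factor that joins the small subunit, had 0.60. Eif5b, which joins the subunits, had -0.61, and Eif3j had -0.55. The 16 measured names of nascent chain and signal recognition factors, the group of NACA, had 0 past 1.5-fold, a median of 0.05 and 11 (68.75%) above 0. They ranged from Srp14 at -0.24 and Btf3l4 at -0.17 to Btf3, the partner of NACA, at 0.22 and Sec61b at 0.23.

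Among 66 measured names of rRNA processing and biogenesis genes, the group of DIMT1, 2 passed upward and 1 downward. Above 0 were 33 (50%), beside 56.8% of all names, and the median was 0.00014. Rrp1 had 0.81 and Sbds, which helps to release a factor from new large subunits, had 0.80. Rrp9, a protein of the U3 particle that also holds the RNU3B RNA, had -0.66 and Utp18, of the same early processing machinery, had -0.50. Both were picked as the greatest decreases of the list. Other listed proteins of the U3 particle had 0.24 (Nop58), 0.10 (Fbl), 0.01 (Nop56), -0.02 (Mphosph10), -0.04 (Imp3) and -0.13 (Imp4). Over the 5 lists, 5 of 214 names (2.34%) passed upward and 2 (0.935%) downward. When the brightest row stood for a name in place of the mean, 25 of the 214 (11.7%) passed upward, beside 5.99% of all names. Of the 92 list names on several rows, 21 (22.8%) then passed, beside 11.7% of the 2806 names on several rows. The share of rows past the limit depends on signal. Near the bright RNU3B pair 21.2% of rows of like signal were higher, beside 3.12% near RPL22. The names were not matched on signal or on number of rows, so these shares do not compare like with like. Counted by single rows, 1344 of all 25128 named rows (5.35%) passed upward and 234 (0.931%) downward. Rows named for large subunit proteins passed upward in 17 of 263 cases (6.46%), near that share, and downward in 2. Rows named for small subunit proteins passed upward in 13 of 141 cases (9.22%) and downward in 1.

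**Figure D5:**
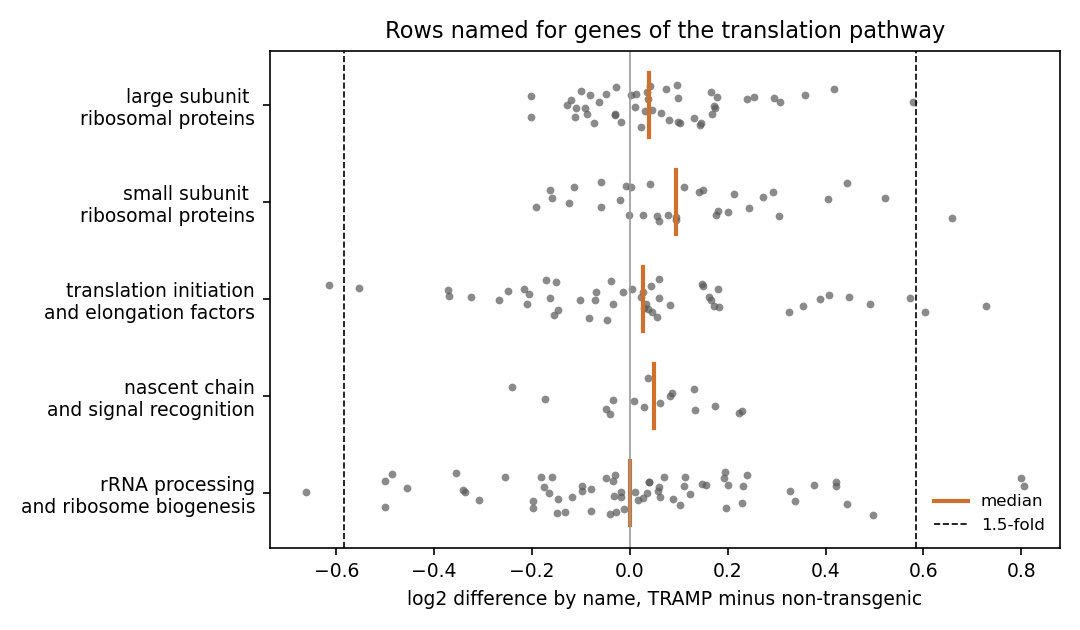
Log2 difference by name, TRAMP minus non-transgenic, for each measured gene of 5 lists of the translation pathway, 1 point per name as the mean over its rows, with the list's median as a bar and 1.5-fold as dashed lines. The medians lie between 0.00014 and 0.09, and 5 points lie beyond the right line and 2 beyond the left line.

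Markers of the cell types in a prostate were read by name for the same samples, and their part in the member differences was not tested. The log2 signal of the table ran from 2.44 to 13.95 in non-transgenic and from 2.34 to 14.06 in TRAMP prostate, with medians of 5.73 and 5.76. Of 9 secretory epithelium names, 0 passed 1.5-fold, the median difference was -0.05 and the summed linear signal was 703 in non-transgenic and 647 in TRAMP prostate. The smooth muscle (6 names, 447 and 514), immune (6 names, 1924 and 2478), proliferation (6 names, 364 and 393) and red blood cell lists (3 names, 301 and 246) also had 0 past 1.5-fold, with median differences of 0.10, 0.09, 0.07 and -0.16. Over all names the summed linear signal was 2.37e+06 in non-transgenic and 2.69e+06 in TRAMP prostate. A sum is weighted to the brightest name. In log2 signal these were Krt18 (7.77 and 7.35) for secretory epithelium, Des (8.14 and 8.41) for smooth muscle and Ptprc (10.75 and 11.13) for immune cells. The shifts of these sums thus do not describe the lists as a whole. Of 5 neuroendocrine names, with summed signals of 344 and 336 and a median of 0.49, Eno2 passed upward at 0.64 and Chga downward at -0.59. One of these 5, Insm1, is the name of a row that holds values of RPL10A. Pbsn, the gene whose promoter drives the transgene in its rat form, had log2 signals of 5.15 and 4.73, below the medians of both samples. Since names and values are out of step, the tissue label could not be checked by these names.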

How the data were processed

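The authors deposited a table with the log2 signal and the linear intensity of both samples, obtained with GeneChip Operating Software and dChip. Background correction and normalization are not given in the sources used here, nor is a genome build. The array type is not settled, since the rows are transcript clusters and the methods name another design. The deposited columns headed as a ratio of the groups and its log2 are quotients of log2 values and were not used. The second deposited table, of 9772 rows, served only for the search described above.

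The difference was log2 TRAMP minus log2 non-transgenic per row, averaged over the rows of a gene, with 1.5-fold (0.58) as the limit. Sets of 1 to 3 rows were searched for each pair of values, and 7 of the 8 pairs had 1 such set. The search and the count past the limit were tested on simulated data, where each drawn set of rows was found and other sets of 3 rows were found beside some of them. Members, lists and markers were chosen with earlier results of these data known. Named were all members, all rows holding their values or names, the 2 greatest increases and 2 greatest decreases of each pathway list, and markers with a result. Of 251 list and marker genes 2 had no matching name. Older symbols were matched through RefSeq, which also gave promoter windows for 7 of the members, none for RNU3B. Alternatives were median, loess (fraction 0.3) and quantile scaling, an offset of 16, removal of dim rows, limits of 2-fold and 1.2-fold, repeated pairs counted as 1, brightest rows, and rows carrying a member's name. Python 3.11.15, numpy 2.4.6, pandas 2.3.3, numba 0.67.0, statsmodels 0.14.6 and matplotlib 3.10.9 were used.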

Additional observations from a re-analysis of the deposited data

How the results depend on the processing

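No paired analysis was possible because a group holds only 1 sample, so none could be left out either. On the rows that hold their values, 42 of 47 member differences under other settings kept their direction and their side of the 1.5-fold limit. The others were RPL10A, at 0.58 after median or loess centring, 0.56 after quantile normalization and 0.53 with the offset of 16, and EIF4A1, at 0.57 with the offset. DIMT1 has no value without dim rows. The other members kept all of their rows in that setting, and RPL22, DIMT1 and the RNU3B genes hold only 1 value to be brightest. Those values could not change, and they count among the 42. On rows that carry the member's name, RPL37 was -0.10, DIMT1 -0.31 and RNU3B 0.0014, each with the opposite sign, and 0 pairs passed upward and 0 downward in place of 7 and 1. At a 2-fold limit, 2 pairs were higher and 0 lower, and 2 member rows in place of 12 were higher and 0 in place of 4 lower.

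The 2276 rows higher over the whole table became 1437 with loess centring, 1404 with quantile normalization, 1463 with the offset, 1512 without dim rows, 352 at 2-fold and 7351 at 1.2-fold. The 869 lower rows became 377 with the offset, 394 without dim rows, 163 at 2-fold and 4465 at 1.2-fold. Of the pathway names, 5 higher became 3 with loess centring, 3 with quantile normalization, 3 with the offset, 0 at 2-fold, 30 at 1.2-fold and 25 by the brightest row, and 2 lower became 0 with the offset, 1 without dim rows, 0 at 2-fold and 15 at 1.2-fold. The causes were not tested.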
